A study of Mus musculus with 14 samples.

Results

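The genes described here are 9 members of the retinoic acid pathway: Aldh1a1, Aldh1a2, Aldh1a3, Crabp1, Crabp2, Cyp26b1, Rara, Rarb and Rarg. They were chosen by gene symbol among the 41934 genes listed for whole brains of male mouse fetuses, and each symbol had 1 entry. RNA came from 4 Dio3+/+ and 2 Dio3-/- fetuses at E13.5, and from 3 Dio3+/+ and 5 Dio3-/- fetuses at E18.5, where E stands for embryonic day. All fetuses were on a C57BL/6J background. The Dio3+/+ and Dio3-/- fetuses are described as littermates from matings of Dio3+/- mice. Each dam was killed at 1 of the 2 ages, so fetuses of different ages came from different litters. Dio3-/- fetuses carry an inactivating mutation of the type 3 deiodinase, the enzyme that clears thyroid hormones, in every cell of the body, and their Dio3 mRNA is still made.

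The value analysed for each gene is the mean normalized count of an age, which the authors averaged over all libraries of that age and over both genotypes. Values of single libraries were not analysed here, so no value below has an SD or a test, and the files give no depth of a library. The genotypes were not compared, because the remaining numeric columns hold the authors' own comparison, which was not used. What can be described is the level of each gene at each age, the make-up of each gene family and the ratio between the ages. The mean at E13.5 held 33.3% Dio3-/- libraries and the mean at E18.5 held 62.5%, so a ratio between the ages also holds a change of genotype mix. If each genotype had the same level at both ages, the mix alone could give ratios from 0.562 to 1.88. Within that range age and genotype mix cannot be told apart. The range holds for 1 gene, and the mix alone can change a ratio of 2 genes, or a share of a family, by more. The part of the mix in changes of ratios and shares within a family was not tested. A ratio outside the range can also hold a part of the mix, since each mean pools both genotypes. The range also takes no account of spread between libraries. Each age was also normalized on its own, and every ratio was taken after each table was scaled to a total of 1000000 over protein-coding genes.

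Retinoic acid is the active derivative of vitamin A. It is made from retinaldehyde by the ALDH1A dehydrogenases, is carried in the cytoplasm by the CRABP proteins and is broken down by the CYP26 hydroxylases. It acts through the nuclear receptors RARA, RARB and RARG, which bind DNA together with an RXR partner, as thyroid hormone receptors also do. In the embryo the place of synthesis and the place of breakdown together set where the signal acts, and it is known for its part in patterning of the hindbrain and spinal cord and for its synthesis in the meninges.

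A well-known feature of the pathway is that Rarb responds to retinoic acid through an element close to one of its start sites. It is shown here because it links a receptor of the list to its ligand, and no binding or chromatin was measured in these samples. The element was searched as a direct repeat of the motif AGGTCA, with AGTTCA accepted in its place, as well as GGGTCA and likewise GGTTCA, and with a spacer of 1, 2 or 5 bases, on both strands, in RefSeq promoter windows of GRCm38.p6 reaching from 250 bases before to 50 bases after a start site. The table of windows holds 1 start of Rarb. It lies inside the gene, 243.7 kb downstream of the 5′ end that GENCODE gives for the longest extent of the gene. The 120 bases before this start (chr14:16575477-16575596, minus strand) are given 5′ to 3′, with the matched element in capitals.
Rarb: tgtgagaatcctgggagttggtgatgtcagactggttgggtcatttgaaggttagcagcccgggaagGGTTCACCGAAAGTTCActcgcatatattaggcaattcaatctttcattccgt
The match lies from 53 to 37 bases before the start and has a spacer of 5 bases. A repeat with this spacer was found in 1 of the 12 windows of the members and in 32 of all 32851 windows, which is 0.0974%. With spacers of 1 and 2 bases the shares of all windows were 0.222% and 0.268%, and no window of a member matched. Windows were given for 7 of the members, all but Aldh1a3 and Crabp2. The element of Rarb was well known before the search, so the counts of matches test nothing about the members as a set. A match is a description of the letters and not of binding.

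All 9 members passed the filter, a mean count of 10 or more at E13.5 and at E18.5, as did 17794 of all genes. Between the ages 4 of the 9 members differed by at least 2-fold. Aldh1a1 was higher at E18.5, while Crabp1, Crabp2 and Cyp26b1 were lower. Over all genes that passed the filter, 10.3% were at least 2-fold higher at E18.5 and 6.85% were at least 2-fold lower. Of the genes past 2-fold, 60.2% were higher, against 45.3% with the values as deposited. The 4 members past 2-fold had the same direction under every scaling tried. Their ratios lay outside the range given above for the genotype mix. The part of the genotype mix in these ratios was not tested, since each mean pools both genotypes. That range also takes no account of spread between libraries. The ratios of the other 5 lay inside that range, except for Aldh1a2. Its ratio was above the range with the tables scaled to all genes, and with the median ratio of all genes set to 1. The other 5 members were within 2-fold, with Aldh1a2 and Rarb higher and Aldh1a3, Rara and Rarg lower at E18.5. The median log2 ratio of the members was -0.47, and that of all genes was -0.10, with quartiles of -0.46 and 0.37. Setting the median ratio of all genes to 1 moves every log2 ratio up by 0.10.

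**Figure D1:**
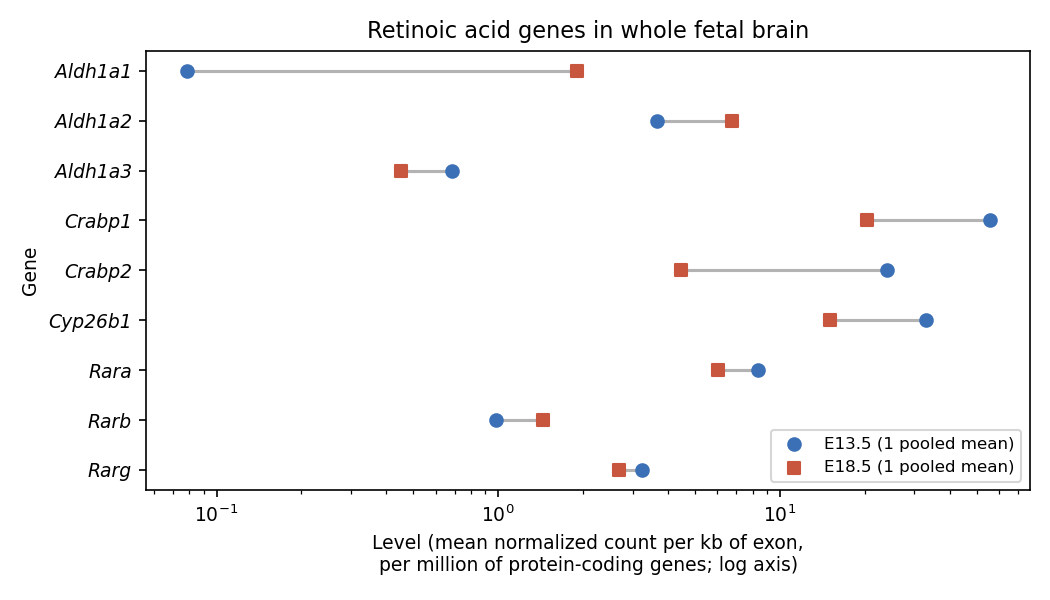
Level of each member at E13.5 (circles) and E18.5 (squares), as mean normalized count per kb of exon after scaling to a total of 1000000 over protein-coding genes, on a log axis. Each point is 1 pooled mean with no error, and the wide gap of Aldh1a1, from 0.0783 to 1.91, stands beside the small gaps of the receptors.

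The synthesis enzymes differed most among themselves. Aldh1a1 oxidises retinaldehyde and is known as a marker of a part of the midbrain dopamine neurons. It lies on chromosome 19 from 20492715 to 20643465 of GRCm38 (ENSMUSG00000053279.8, plus strand, with 6 annotated transcripts in GENCODE), and all positions below are on this build. Its mean normalized count was 10.2 at E13.5 and 219 at E18.5. After scaling it was 24.3-fold higher at E18.5, a log2 ratio of 4.61. This ratio was at percentile 99.9 of all genes that passed the filter, and the level at E13.5 was just above the filter. With 1 added to the scaled values the log2 ratio was 2.91. A mean over libraries can also be set by 1 of them. Of its 4937 exon bases, 11.2% lie in introns of C730002L08Rik on the opposite strand, and the counting did not use strand.

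Aldh1a2 is the main embryonic enzyme of retinoic acid synthesis and is known for its expression in the leptomeninges. It lies on chromosome 9 from 71215789 to 71296243 (ENSMUSG00000013584.5, plus strand). Its mean normalized count was 218 at E13.5 and 355 at E18.5, 1.84-fold higher at the later age after scaling and thus within the 2-fold limit. Aldh1a3, known for its expression in the developing eye, nose and striatum, lies on chromosome 7 from 66390890 to 66427517 (ENSMUSG00000015134.15, minus strand). Its mean normalized counts were 83.2 and 48.6, 1.51-fold lower at E18.5.

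Levels of different genes were compared as the scaled mean count per kb of exon, given below as a level per kb. At E13.5 Aldh1a2 made up 82.8% of the summed level of the 3 enzymes, Aldh1a3 15.5% and Aldh1a1 1.77%. At E18.5 the shares were 74.1% for Aldh1a2, 4.96% for Aldh1a3 and 21.0% for Aldh1a1. Aldh1a1 and Aldh1a3 thus changed places as the second enzyme of the family. The level of Aldh1a2 was 46.7 times that of Aldh1a1 at E13.5 and 3.54 times at E18.5. Such ratios and shares do not depend on how the 2 tables are scaled to each other, but they depend on the gene length. With the longest transcript as the length, Aldh1a1 had 3.46% of the family at E13.5 and 35.2% at E18.5, and Aldh1a2 had 22.3 and 1.69 times its level. With the mean transcript length, Aldh1a1 had 4.44% and 44.5%, Aldh1a3 35.3% and 9.63%, and Aldh1a2 had 13.6 and 1.03 times the level of Aldh1a1. The exchange of places was found with each of these lengths. The summed level of the family was 4.42 per kb at E13.5 and 9.10 at E18.5.

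**Figure D2:**
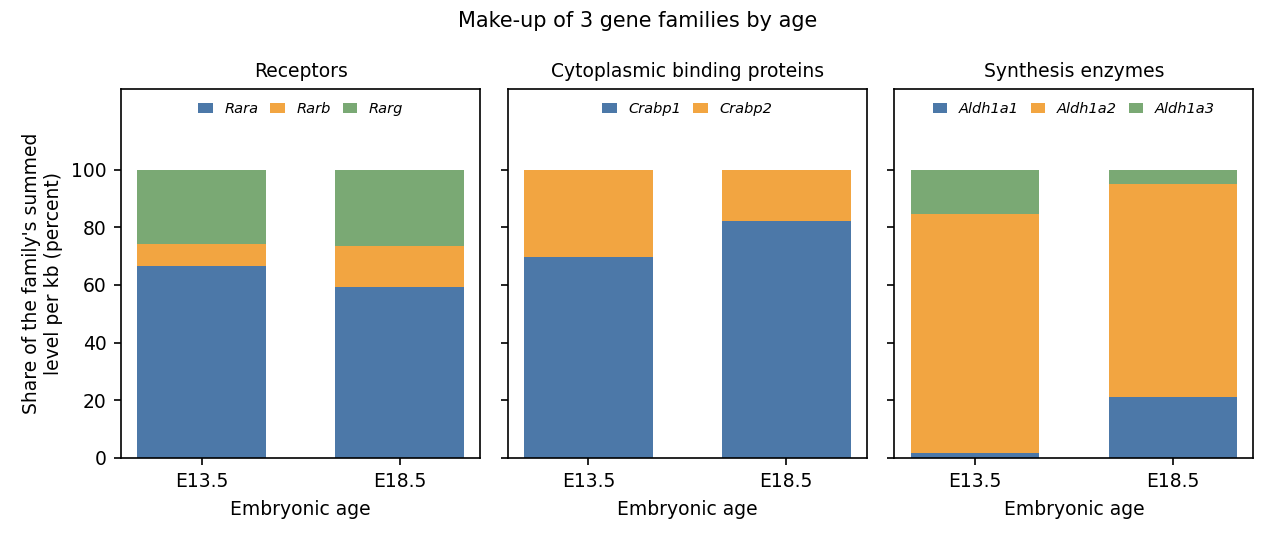
Share of each gene in the summed level per kb of its family, in percent, at E13.5 and E18.5. Each bar is made from pooled means with no error. Aldh1a1 took 1.77% of the synthesis enzymes at E13.5 and 21.0% at E18.5, and Rara was the largest part of the receptors at both ages.

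The cytoplasmic binding proteins were both lower at E18.5. CRABP1 and CRABP2 are small proteins that bind retinoic acid, and CRABP2 is known to deliver it to the receptors. Crabp1 lies on chromosome 9 from 54764748 to 54773110 (ENSMUSG00000032291.8, plus strand), and its mean normalized count was 1175 at E13.5 and 380 at E18.5. This was 2.73-fold lower at E18.5, at percentile 3.16 of the ratios of all genes. Crabp2 lies on chromosome 3 from 87948666 to 87953376 (ENSMUSG00000004885.5, plus strand), and its mean normalized count was 838 at E13.5 and 137 at E18.5. It was 5.39-fold lower at E18.5, at percentile 0.444, the lowest ratio of the 9 members. The summed level of both genes was 79.5 per kb at E13.5 and 24.8 at E18.5. Since Crabp2 was lower by more, the level of Crabp1 was 2.31 times that of Crabp2 at E13.5 and 4.57 times at E18.5. With the mean transcript length these values were 1.39 and 2.75. The part of the genotype mix in this change was not tested.

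Cyp26b1 encodes a hydroxylase that removes retinoic acid and is known as the CYP26 of the later embryonic brain. It lies on chromosome 6 from 84571414 to 84593908 (ENSMUSG00000063415.12, minus strand). It had the highest mean normalized count of the members at both ages, with 4670 at E13.5 and 1879 at E18.5. After scaling it was 2.19-fold lower at E18.5, at percentile 5.31 of all ratios. Per kb, its level was 7.48 times the summed level of the 3 synthesis enzymes at E13.5 and 1.66 times at E18.5, which is a 4.52-fold smaller ratio at the later age. These are ratios of mRNA and not of enzyme activity.

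**Figure D3:**
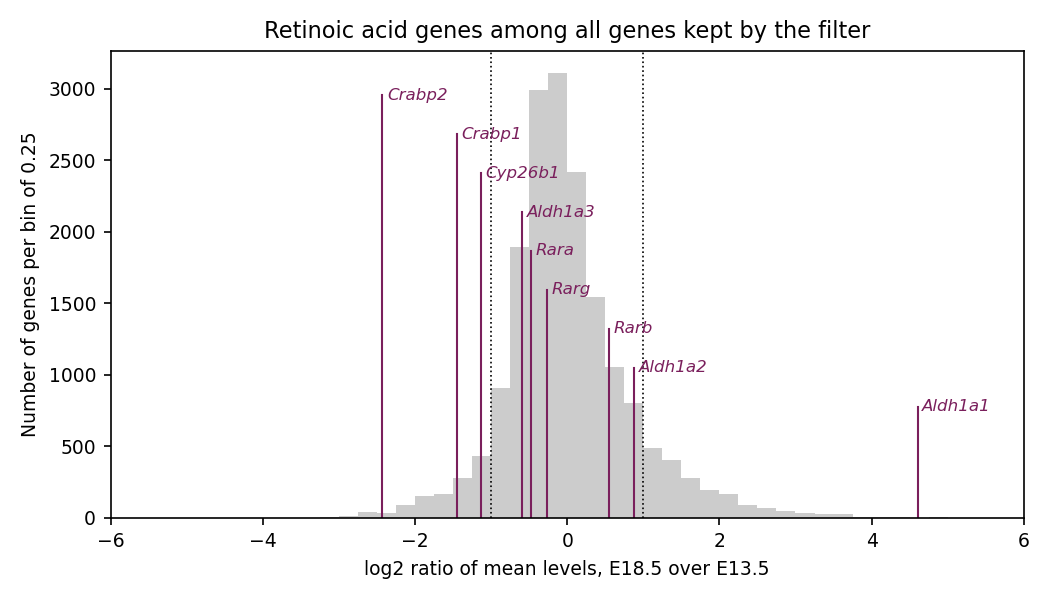
Number of genes by log2 ratio of mean levels, E18.5 over E13.5, in bins of 0.25 for the 17794 genes that passed the filter (grey bars), with the 9 members marked by lines whose height has no meaning. The dotted lines mark 2-fold: Crabp2, Crabp1 and Cyp26b1 lie below the lower line and Aldh1a1 lies far above the upper one.

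The 3 receptors were within 2-fold between the ages. Rara lies on chromosome 11 from 98927818 to 98974942 (ENSMUSG00000037992.16, plus strand), and its mean normalized counts were 963 and 613, 1.39-fold lower at E18.5. Rarg lies on chromosome 15 from 102234938 to 102257517 (ENSMUSG00000001288.15, minus strand), and its mean normalized counts were 364 and 266, 1.20-fold lower at E18.5. Rarb was the only receptor with a higher value at E18.5. It lies on chromosome 14 from 16430839 to 16819156 (ENSMUSG00000017491.9, minus strand), and its mean normalized counts were 136 and 177, 1.47-fold higher at E18.5. In the ratios of all genes Rara was at percentile 24.3, Rarg at 38.1 and Rarb at 80.6.

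Per kb, Rara made up 66.5% of the receptor level at E13.5 and 59.4% at E18.5, and Rarg 25.7% and 26.4%. The share of Rarb was 7.80% at E13.5 and 14.2% at E18.5. Of the 5265 exon bases of Rarb, 34.1% overlap exons of Top2b on the opposite strand. Reads there were assigned to neither gene, so the level of Rarb per kb is too low by this measure. Over the 3245 exon bases that no other gene shares, its level was 1.59 per kb at E13.5 and 2.34 at E18.5, against 0.981 and 1.44 over all its exon bases. Its share of the receptors was then 12.1% at E13.5 and 21.2% at E18.5. The ratio between the ages is not changed by the length. Exons of the other members did not overlap exons of another gene.

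The order of the 9 members by level per kb was led at both ages by Crabp1 and then Cyp26b1. Crabp1 had 55.5 per kb at E13.5 and 20.4 at E18.5, which placed it at percentile 97.1 and 88.0 of protein-coding genes with a count above 0. Cyp26b1 had 33.0 and 15.1, at percentiles 93.2 and 83.0. At E13.5 Crabp2 followed with 24.0, then Rara with 8.36, Aldh1a2 with 3.65, Rarg with 3.23, Rarb with 0.981, Aldh1a3 with 0.682 and Aldh1a1 with 0.0783. At E18.5 Aldh1a2 came next with 6.74, before Rara with 6.03, Crabp2 with 4.45, Rarg with 2.68, Aldh1a1 with 1.91, Rarb with 1.44 and Aldh1a3 with 0.452. Crabp2 was at percentile 89.5 at E13.5 and 57.0 at E18.5, and Aldh1a1 was at 17.6 and 42.9. No spread between libraries is at hand to say which neighbours in these orders differ. With the longest transcript as the gene length, Aldh1a2 and Rarg changed places at E13.5. At E18.5 Aldh1a2 and Rara then changed places, as did Rarg and Aldh1a1. Cyp26b1 came before Crabp1 at E18.5 with the mean transcript length. With the longest transcript the level of Aldh1a1 was 0.164 at E13.5 and 3.99 at E18.5.

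Other genes of the pathway were taken as 29 genes from 6 lists. Of these, 22 passed the filter, 3 were at least 2-fold higher at E18.5, 2 were at least 2-fold lower and 17 were within 2-fold. Of all genes that passed the filter, 10.3% were at least 2-fold higher and 6.85% at least 2-fold lower. The number of pathway genes at least 2-fold higher was 2 with the values as deposited, where Adh7 was within 2-fold. It was 4 with the median ratio set to 1, where Dhrs3 passed 2-fold. The median log2 ratio of the 22 pathway genes was -0.09, beside -0.10 for all genes. Among genes of retinol supply and storage, 2 of 4 passed and neither differed by 2-fold. Stra6, the membrane receptor for the retinol carrier, had mean normalized counts of 412 and 325 and the highest level per kb of this list at both ages.

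Among the 7 genes of retinol oxidation and its reversal, 5 passed, and Adh7 was 2.23-fold higher at E18.5 with mean normalized counts of only 11.3 and 22.2. Rdh10, which makes the retinaldehyde used for retinoic acid in the embryo, had 596 and 377, and Dhrs3, which turns retinaldehyde back into retinol, had 239 and 400. Adh5 had the highest level per kb of this list at E13.5, with 19.2 per kb. Rdh11 led it at E18.5 with 17.3.

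The other hydroxylases had low values. Cyp26a1 had a mean normalized count of 8.07 at E13.5 and 2.84 at E18.5, and Cyp26c1 had 5.65 and 2.01. Both were below the filter, and Cyp26b1 made up 99.2% of the summed level of the 3 genes per kb at E13.5 and 99.3% at E18.5. Fabp5, a lipid-binding protein that can also carry retinoic acid, had 2476 and 3003, which is 1.38-fold higher at E18.5.

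The RXR partners differed in direction. Rxra was 2.24-fold lower at E18.5, with mean normalized counts of 1421 and 558. Rxrg was 4.97-fold higher, with 114 and 501, and is known for its expression in the striatum. Rxrb had 1544 and 966 and stayed within 2-fold. Of 6 coregulators only Ncoa1 differed by 2-fold, with 2770 and 5771, 2.36-fold higher at E18.5, and Ncor1 was the coregulator with the highest level per kb at both ages. Among 6 genes that respond to retinoic acid, 5 passed and all 5 had a lower value at E18.5 after scaling, as did 56.9% of all genes that passed the filter. Of these only Meis1, a homeobox factor, passed 2-fold, with 3161 and 1272, 2.19-fold lower. The ratio of Meis2, which had the highest level per kb of this list, was 0.996, and it was above 1 when the tables were scaled to all genes, to coding genes outside the mitochondrial chromosome or to a median ratio of 1.

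**Figure D4:**
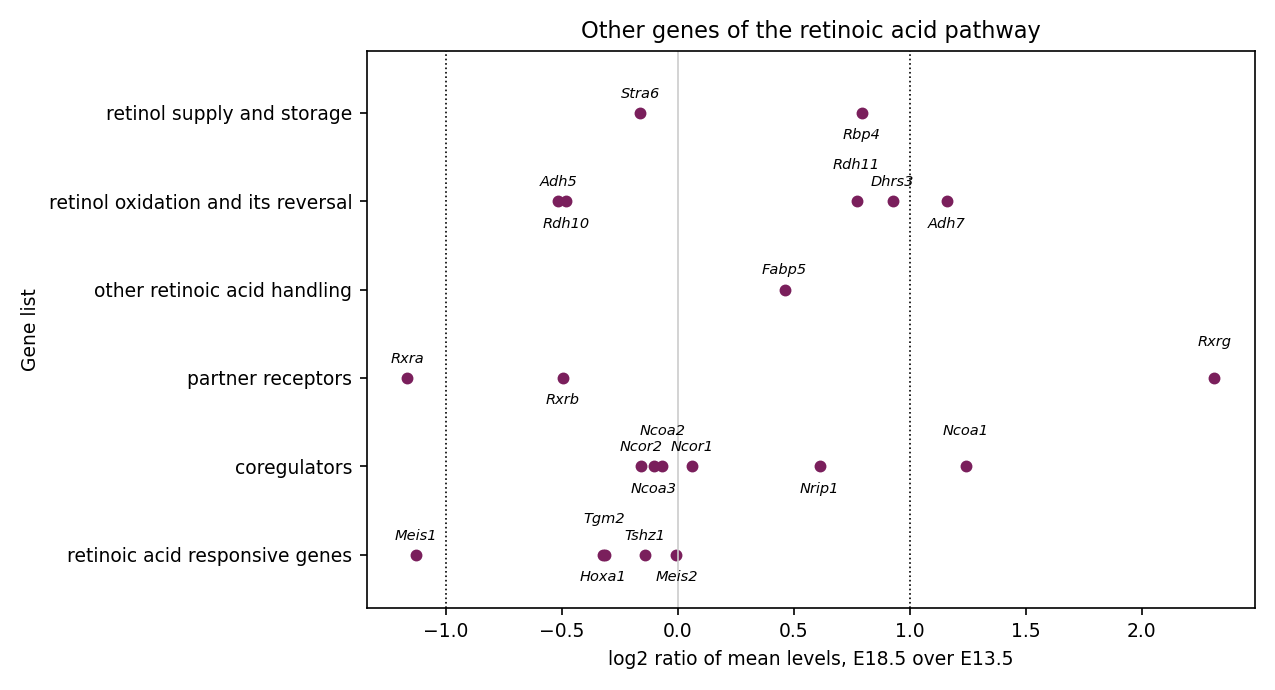
Log2 ratio of mean levels, E18.5 over E13.5, for the 22 pathway genes that passed the filter, by list. Each point is 1 gene from pooled means with no error, and the dotted lines mark 2-fold, which Rxrg, Ncoa1 and Adh7 passed upward and Rxra and Meis1 downward.

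The tissue label was checked against markers of neurons and neural progenitors. All 10 passed the filter, and Tubb3 was at percentile 99.9 of protein-coding genes at both ages. Markers of other cells also differed between the ages. Cartilage markers had a summed level of 25.8 per kb at E13.5 and 2.83 at E18.5, with 2 of the 3 genes that passed the filter at least 2-fold lower. Most of this sum was Col2a1, with 23.5 and 1.97 per kb. Skeletal muscle markers had a summed level of 3.09 and 0.505, with both genes that passed lower. The levels of Crabp1, Crabp2 and Cyp26b1 were lower at E18.5 too, and the part of these tissues in their values was not tested.

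Markers of fibroblasts and leptomeninges, where Aldh1a2 is known to be made, had a summed level of 119 at E13.5 and 73.2 at E18.5. Most of this sum was Col1a1, with 61.5 and 32.6 per kb, and Col1a2, with 26.1 and 16.0. All 6 passed, Slc6a13 was 3.87-fold higher and Lum was at least 2-fold lower at E18.5. Choroid plexus markers had a summed level of 133 and 471, with 3 of 4 at least 2-fold higher. Nearly all of this sum was Ttr, with 129 and 464 per kb, and Kcne2 was 1.02-fold higher. Erythroid markers had a summed level of 246 and 143. Of the 5 eye markers only Dct passed the filter, Cryaa was listed at 0 at E13.5, and the summed level was 0.320 and 0.258. In whole brain, fewer cells of a type and less RNA per cell cannot be told apart. Dio3 itself had mean normalized counts of 99.0 and 129, and a mean over both genotypes does not check the labels. After scaling Dio3 was 1.48-fold higher at E18.5. This ratio lies inside the range given for the genotype mix, so age and mix cannot be told apart for it.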

How the data were processed

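RNA sequencing of whole brains was analysed from 14 male fetuses in 4 groups of age and genotype, taken from the sample labels. The submitters' processing notes and the paper's methods name cutadapt 3.1, STAR 2.5.3a on GRCm38, bedtools 2.26.0, HTSeq without strand on GENCODE VM22, ComBat-seq between the 2 sequencing batches and DESeq2 1.30.1 within each age. The authors deposited 1 table per age. Its mean normalized count is a signal: the authors divided each library's counts by a size factor and averaged them per gene. The age of a table was read from its name. The other numeric columns (log2 fold change of Dio3-/- against Dio3+/+, its standard error, Wald statistic, p-value and adjusted p) hold the authors' own comparison and were not used. Columns with values of single samples numbered 0. The batch adjustment can change any mean, and its effect was not tested.

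With Python 3.11.15 and pandas 2.3.3, each table was scaled to a total of 1000000 over protein-coding genes, which held 92.4% of the total at E13.5 and 94.8% at E18.5. Levels were divided by the union of exons in GENCODE M21 on GRCm38, which gave a length for 41897 genes and none for 37. Ratios were taken for genes with a mean count of 10 or more at each age, with 2-fold as the limit and no pseudocount. The steps were tested on simulated data. A count test planned for tables of single libraries was not made. The members and lists were chosen with earlier results of these data known. The genes named are the members, Dio3, and list genes that passed 2-fold or led their list in level per length. List genes within 2-fold, and those below the filter, that are named as examples were chosen after their values were seen. Of the gene lists, 1 gene is not reported here.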

Additional observations from a re-analysis of the deposited data

How the results depend on the processing

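All 61 recomputed ratios of the 9 members kept their direction and their side of 2-fold, under 4 other scalings, the other filters and a pseudocount of 1. The scaling without mitochondrial genes, the length without shared exons and the family shares with other lengths were chosen after seeing the data. With 1.5-fold as the limit 2 members were higher and 4 lower at E18.5, against 1 and 3 at 2-fold, and with a filter at a mean count of 50 in place of 10, 0 were higher, since Aldh1a1 and Aldh1a3 then left the comparison. Of the 8 neighbouring pairs in the order of levels per kb, the longest transcript kept 7 at E13.5 and 6 at E18.5. The mean transcript length kept 7 and 5, and exon bases not shared with another gene kept 8 and 7. Ranked among all genes above 0, the lowest percentile of a member was 25.3 at E13.5 and 47.0 at E18.5, since the ranking then includes many non-coding genes with low levels. No paired analysis was possible because each table gives 1 pooled mean per gene and the result comes from no test, and for the same reason no replicate could be left out and the alternatives planned for a genotype test were not run. The files give no depth of single libraries and the methods give aligned reads only as a range over samples, so counting error could not be given for a single value.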
